A study of Homo sapiens with 8 samples.

Results

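The RNAs described here are the small nuclear RNAs (snRNAs) of the spliceosome and the small Cajal body RNAs (scaRNAs) that guide their chemical modification. The members were all transcripts of the deposited table whose RefSeq identifier maps to a symbol starting with SCARNA, RNU or RNVU, a rule that uses no measured value. It gave 34 of 53216 transcripts: 24 scaRNAs and 10 snRNAs. By their known box motifs, 14 scaRNAs were H/ACA RNAs, 5 were C/D RNAs, 4 carried both kinds of box and 1, SCARNA27, was not classed. Of the snRNAs, 4 belonged to the minor spliceosome (RNU11, RNU12, RNU4ATAC, RNU6ATAC) and 6 to the major one (RNU5D-1, RNU5E-1, RNU5F-1, RNU6-2, RNVU1-8, RNVU1-19). Numbered repeats of the identifiers of RNU6-2 (10) and RNVU1-19 (1) also stand in the table; all 11 were at 0 in every library and were not counted as members. Other snRNA genes were not analysed here.

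As background, the spliceosome removes introns, and its snRNAs base-pair with the splice sites and with each other. The major spliceosome uses U1, U2, U4, U5 and U6, and the minor spliceosome uses U11, U12, U4atac and U6atac with a shared U5 for a small class of introns. Most snRNAs receive a cap, a ring of Sm proteins and, in the Cajal body of the nucleus, modified bases: H/ACA scaRNAs guide the change of uridine to pseudouridine, and C/D scaRNAs guide methylation of the ribose. Most human scaRNAs are cut out of introns of other genes, so that their own first base carries no cap from transcription.

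The cells were HEK293T, a human embryonic kidney line, and the RNA of 8 libraries was sequenced. In 2 libraries, unmodified (wild-type, WT) cells gave RNA depleted of ribosomal RNA with RiboMinus. In 3 libraries, WT RNA was enriched by NAD-Capture, in which an ADP-ribosyl cyclase exchanges part of a nicotinamide adenine dinucleotide (NAD) at an RNA's first base for an alkyne, a click reaction adds biotin, and streptavidin beads bind the RNA. In the other 3, NAD-Capture was applied to cells that the labels call DXO-KO, after DXO, an enzyme that removes NAD caps. All cultures were untreated per the labels, which do not state how the knockout was made, whether it is 1 clone, or whether replicates were separate cultures, so p-values measure only the spread between these libraries, which may be technical. The protocols name a reaction without the cyclase as background control; its libraries were not analysed here, and RNA bound through NAD cannot be told apart from RNA bound otherwise. The RiboMinus and NAD-Capture libraries also differ in kit, TruSeq against a SMARTer low-input kit, so capture and kit cannot be told apart. Nor can the number of cells holding an RNA be told apart from the amount per cell in RNA from whole cultures.

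The sequences below are those of the members whose values the results turn on; they were read from GENCODE release 29 transcripts on GRCh38, each 5′ to 3′ on the strand of its gene. For the snRNAs the capitals mark a match to the Sm-type motif AATTTNTG or AATTTTTTG, read on the RNA's own strand. RNU11 (chr1:28648600-28648733, plus strand) and RNU4ATAC (chr2:121530881-121531007, plus strand) were the snRNAs that passed the test in the capture comparison, the latter with no fragment in any NAD-Capture library, and RNU12 (chr22:42615244-42615393, plus strand) is the other minor snRNA with a value in every library.
RNU11: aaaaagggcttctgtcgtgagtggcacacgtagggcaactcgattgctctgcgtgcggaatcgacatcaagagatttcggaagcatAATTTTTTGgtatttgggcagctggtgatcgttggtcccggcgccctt
RNU12: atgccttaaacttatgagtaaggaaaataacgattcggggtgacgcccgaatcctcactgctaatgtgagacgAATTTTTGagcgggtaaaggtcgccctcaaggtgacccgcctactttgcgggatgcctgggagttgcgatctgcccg
RNU4ATAC: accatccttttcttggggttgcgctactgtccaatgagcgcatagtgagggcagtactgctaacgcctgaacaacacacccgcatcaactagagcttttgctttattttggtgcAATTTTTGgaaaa

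For the H/ACA scaRNAs the capitals mark the ACA that stands 3 nt before the end. SCARNA1 (chr1:27834401-27834566, plus strand, within PPP1R8), SCARNA4 (chr1:155925958-155926086, minus strand, within KHDC4), SCARNA8 (chr9:19063656-19063786, minus strand, within HAUS6) and SCARNA22 (chr4:1974636-1974760, plus strand, within NSD2) carried the highest H/ACA levels.
SCARNA1: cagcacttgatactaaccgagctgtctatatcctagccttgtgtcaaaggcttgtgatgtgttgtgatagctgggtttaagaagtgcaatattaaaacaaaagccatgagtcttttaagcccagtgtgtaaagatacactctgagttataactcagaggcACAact
SCARNA4: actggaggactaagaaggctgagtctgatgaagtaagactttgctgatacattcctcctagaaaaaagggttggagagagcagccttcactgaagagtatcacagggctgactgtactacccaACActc
SCARNA8: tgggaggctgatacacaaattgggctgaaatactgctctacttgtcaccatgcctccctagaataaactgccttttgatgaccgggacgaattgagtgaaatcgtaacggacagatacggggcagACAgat
SCARNA22: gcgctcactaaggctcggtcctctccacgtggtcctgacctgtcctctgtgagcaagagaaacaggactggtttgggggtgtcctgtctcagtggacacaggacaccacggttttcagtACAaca

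SCARNA5 (chr2:233275727-233276002, plus strand, within ATG16L1) and SCARNA12 (chr12:6967337-6967606, minus strand, within PHB2) have both kinds of box and passed the capture test in opposite directions on the deposited scale. Capitals mark the box C motif ATGATGA where it was found and a CTGA in the last 14 nt, the letters of box D.
SCARNA5: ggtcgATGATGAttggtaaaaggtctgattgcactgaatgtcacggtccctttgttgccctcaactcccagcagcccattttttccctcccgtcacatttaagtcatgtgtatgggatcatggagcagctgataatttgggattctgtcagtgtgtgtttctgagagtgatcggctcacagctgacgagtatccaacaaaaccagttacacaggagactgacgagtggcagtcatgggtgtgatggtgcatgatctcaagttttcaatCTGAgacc
SCARNA12: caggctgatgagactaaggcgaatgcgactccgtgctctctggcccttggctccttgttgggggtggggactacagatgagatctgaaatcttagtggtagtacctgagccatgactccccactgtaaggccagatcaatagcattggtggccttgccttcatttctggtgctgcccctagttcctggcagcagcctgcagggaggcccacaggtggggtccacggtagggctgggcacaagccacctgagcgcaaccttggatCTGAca

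GENCODE held a transcript for 31 of the 34 members. The ACA stood 3 nt before the end in 11 of 14 H/ACA scaRNAs, beside 75.2% of 149 SNORA transcripts, the H/ACA snoRNAs of the nucleolus, and 1.4% of 288 SNORD transcripts, the C/D snoRNAs. ATGATGA was found in 5 of 8 C/D and mixed scaRNAs, beside 50.7% of SNORD and 0% of SNORA transcripts. The Sm-type motif was found in 7 of 9 snRNAs and in 0% of SNORA transcripts; RNU6-2 and RNU6ATAC were the snRNAs without it. An A as first base, the base that starts an NAD-capped RNA, opened 6 of 9 snRNA and 4 of 22 scaRNA transcripts.

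The value of each transcript was its FPKM as the authors deposited it, a number of fragments divided by the length of the transcript and by the size of the library. Between 17423 and 31667 of the 53216 transcripts were above 0 in a library. Low FPKM values fell on steps that are the value of 1 fragment, and these gave the libraries' depth as 10608238 and 8712592 fragment equivalents for RiboMinus, 163016 to 245201 for WT NAD-Capture and 793958, 136406 and 79588 for DXO-KO replicates 1, 2 and 3. The step of a short RNA relative to that of a long transcript was 71.8 to 85.8 in 5 NAD-Capture libraries but 245 in DXO-KO replicate 3, and 224 and 138 in RiboMinus, so the FPKM of short RNAs is raised against that of long ones in those 3 libraries. The DXO transcript itself was listed at 128, 61.6 and 71.7 FPKM under the label DXO-KO and at 33.2, 17.2 and 27.1 under WT NAD-Capture (log2 difference 1.69, two-sided exact permutation p = 0.1, the smallest that 3 against 3 allows). The label DXO-KO is thus not matched by less captured DXO RNA. None of the 8 libraries was RiboMinus RNA of DXO-KO cells, so the amount of DXO RNA in those cells was not measured, and RNA says nothing of the protein. Of the marker genes, VIM, LIN28B, NEFL and NEFM were above 0 in all 8 libraries and PAX2 in 7. Of 6 markers of other cell types, PTPRC of blood cells was at 0 in all 8, CD3E, ALB and COL1A2 were above 0 in 1 library each (at most 0.93 FPKM), EPCAM in 3 (at most 4.71) and COL1A1 in 7 (8.27 to 9.28 in WT NAD-Capture); their part in the results was not tested.

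The members took a larger part of the summed FPKM in the NAD-Capture libraries than in the RiboMinus ones. Their summed FPKM was 1.21% and 1.14% of all FPKM in RiboMinus, 5.78%, 5.2% and 3.63% in the WT capture libraries and 6.49%, 2.31% and 9.28% in DXO-KO. In the NAD-Capture libraries most of this came from 2 RNAs. RNU11 made up 9.19% and 10.4% of the members' sum in RiboMinus, 49.7% to 54.4% in WT NAD-Capture and 19.1% to 30.4% in DXO-KO. SCARNA1 made up 0.795% and 0.605%, then 19.5% to 21.8%, then 33.9% to 39.8%. The groups did not overlap for either share. Of the 34 members, 17 were above 0 in every library, and 5 (RNU5D-1, RNU5E-1, RNU5F-1, RNU6-2 and RNVU1-19) were at 0 in all 8.

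Among the snRNAs, RNU11, the U11 that recognises the 5′ splice site of minor introns, was listed at 604 and 643 FPKM in RiboMinus, at 48300, 59534 and 20720 in WT NAD-Capture and at 15777, 54649 and 195580 in DXO-KO. Every NAD-Capture library lay above both RiboMinus libraries, and the NAD-Capture groups overlapped. RNU12, which pairs with the branch point of the same introns, had 540 and 668, then 1832, 1751 and 388, then 1162, 642 and 3506 FPKM, with overlap between all groups. RNU6ATAC, the catalytic snRNA of the minor spliceosome, had 827 and 808, then 1254, 705 and 0, then 1008, 1518 and 4255 FPKM. Those figures rest on few fragments outside RiboMinus: 26 and 35 there, 2, 1 and 0 in WT NAD-Capture, then 8, 2 and 1 in DXO-KO. RNU4ATAC, its pairing partner, was above 0 in RiboMinus alone, at 50.2 and 73.7 FPKM, or 2 and 4 fragments. RNVU1-8, a variant of U1, had 194 and 261, then 674, 1879 and 250, then 203, 1643 and 2282 FPKM. U1 variants share most of their sequence, so reads of other U1 copies may be counted in that row or its reads elsewhere.

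SCARNA1, an H/ACA guide for U2, had 52.2 and 37.4 FPKM in RiboMinus, then 17984, 23689 and 9100 in WT NAD-Capture, then 27948, 70953 and 256440 in DXO-KO. No group overlapped another. SCARNA4, also a U2 guide, had 26.7 and 0, then 3691, 7091 and 3538, then 9947, 20451 and 75378 FPKM, again without overlap. SCARNA8, a further U2 guide, had 23.7 and 35.0, then 5345, 4895 and 1085, then 4288, 26522 and 46337 FPKM; DXO-KO replicate 1 lay within the WT range.

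SCARNA22 was the H/ACA scaRNA of this set with the highest mean RiboMinus level, at 689 and 171 FPKM, followed by 3763, 2819 and 2344 in WT NAD-Capture, then 8567, 4553 and 17021 in DXO-KO. SCARNA23, a scaRNA within POLA1, had 0 and 36.9, then 1518, 567 and 0, then 2538, 2454 and 13783 FPKM. SCARNA16, an H/ACA guide for U1, had 314 and 324, then 1215, 1367 and 494, then 486, 701 and 3930 FPKM, so that its NAD-Capture groups overlapped. SCARNA21 had 48.3 and 12.4, then 747, 417 and 554, then 300, 0 and 2538 FPKM, which is at most 4 fragments in any library.

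The C/D and mixed scaRNAs spanned a much narrower range than the H/ACA ones. By RefSeq length they were also longer, at 266 to 421 nt against 125 to 187 nt for the H/ACA ones other than SCARNA13 (275 nt). SCARNA17, a C/D RNA of 421 nt by RefSeq, is 144 nt in GENCODE. Class and RefSeq length thus ran nearly together, and the part of each was not tested. SCARNA5, which guides modification of U5, had 445 and 302 FPKM in RiboMinus, then 1040, 1143 and 967 in the WT capture libraries and 1952, 2872 and 3717 in DXO-KO. SCARNA10, the U85 RNA and a U5 guide with both kinds of box, had 542 and 492, then 492, 731 and 461, then 1481, 2843 and 4924 FPKM. WT NAD-Capture and RiboMinus were mixed for SCARNA10, and DXO-KO stood above both.

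SCARNA12, also a U5 guide, had 635 and 633 FPKM in RiboMinus, fewer in WT NAD-Capture at 255, 146 and 192, and 897, 845 and 1413 in DXO-KO. SCARNA9L, a copy related to the U2 methylation guide SCARNA9, had 178 and 163, then 291, 425 and 321, then 930, 1211 and 2468 FPKM, with SCARNA9 itself lower in every library. Reads shared by SCARNA9 and SCARNA9L make their split uncertain.

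**Figure D1:**
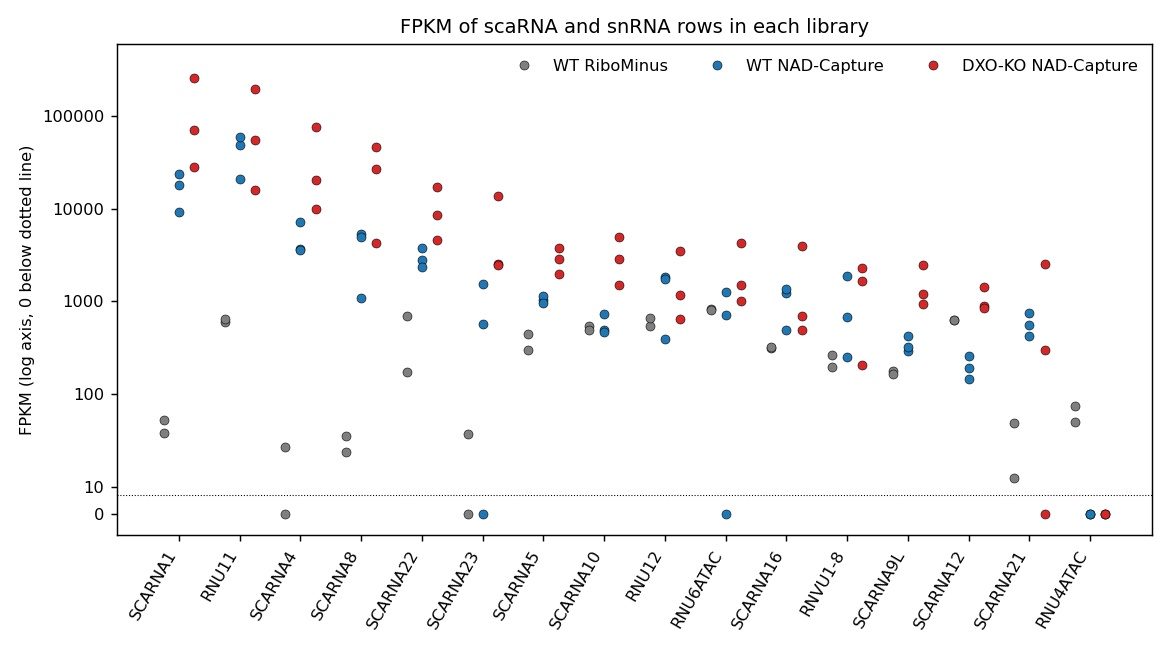
FPKM of the 16 members described with every library value, ordered by mean FPKM; each point is 1 library (log axis, values of 0 drawn below the dotted line), grey for WT RiboMinus, blue for WT NAD-Capture, red for DXO-KO NAD-Capture. SCARNA1 ran from 37.4 FPKM in a RiboMinus library to 256440 in DXO-KO replicate 3, whereas RNU4ATAC was at 0 in all 6 NAD-Capture libraries.

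The comparison of DXO-KO with WT NAD-Capture asks which RNAs are captured in other amounts under the label DXO-KO. None of the 28 tested members passed an adjusted p of 0.05 in limma, where 0.032% of all 25004 tested transcripts did (0.024% higher, 0.008% lower). In 14 members, all of them scaRNAs, every DXO-KO library nevertheless lay above every WT library, beside 7.57% of all tested transcripts, and no member lay wholly below, beside 8.53%, or 16.1% in either direction; none of these differences passed the adjusted threshold. They were SCARNA1, SCARNA4, SCARNA13, SCARNA22 and SCARNA23 among the H/ACA RNAs, and every C/D or mixed scaRNA (SCARNA2, SCARNA5, SCARNA6, SCARNA7, SCARNA9, SCARNA9L, SCARNA10, SCARNA12 and SCARNA17). None of the 4 tested snRNAs was separated in this way. At an unadjusted p of 0.05, 14 members passed in limma, beside 9.17% of all transcripts, 31 of 86 tested SNORA and 1 of 27 tested SNORD transcripts. Among the SNORA transcripts 28 lay wholly higher in DXO-KO and 0 wholly lower, and among the SNORD transcripts 4 and 0.

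A member was tested where it was above 0 in any library compared with a mean FPKM of at least 1: 28 of 34 were, the other 6 being at 0 in all 6 libraries. SCARNA14, SCARNA18 and SCARNA27 passed the filter through DXO-KO values alone and SCARNA11 through WT values alone. The log2 fold changes below are on the scale of FPKM + 1, and the median over the 28 was 2.01 against -0.06 for all transcripts. It was 2.09 for 86 tested SNORA and 2.03 for 27 tested SNORD transcripts, close to the members' median; no difference between these families was tested. With libraries centred on the median SNORA transcript, the members' median was 0.24, with 15 above 0 and 13 below, and that of all transcripts was -1.83. Centring on the median transcript gave 2.46 for members and 0.39 for all transcripts. Either centring shifts all transcripts of a library alike, so the distance between members and all transcripts stayed at 2.07. With quantile normalization the members' median was 1.39. Without DXO-KO replicate 3 the members' median was 1.59, and 22 of 28 were above 0.

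The largest differences relative to their error were SCARNA13, an H/ACA guide, at 3.05 (SE 0.535, limma adjusted p = 0.151; over the alternatives 0.0439 to 0.572) and SCARNA12 at 2.40 (SE 0.391, limma adjusted p = 0.134; over the alternatives 0.0341 to 0.622). Only when the 8 libraries shared 1 estimate of the spread did both pass. SCARNA13 was listed at 123, 280 and 424 FPKM in WT NAD-Capture and at 1529, 1947 and 2825 in DXO-KO. The 9 C/D and mixed scaRNAs lay between 1.15 (SCARNA2) and 2.42 (SCARNA7). Their SEs were small beside those of most H/ACA RNAs: SCARNA10 differed by 2.32 (SE 0.529, limma adjusted p = 0.253), SCARNA9L by 2.04 (SE 0.461, limma adjusted p = 0.253) and SCARNA5 by 1.39 (SE 0.422, limma adjusted p = 0.391). Centring on the median SNORA transcript turned SCARNA5 to -0.38.

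The abundant H/ACA RNAs had wider errors, and DXO-KO replicate 3 was their highest library. SCARNA1 differed by 2.34 (SE 1.12) and by 1.50 without that replicate. SCARNA4 differed by 2.46 (SE 0.882) and by 1.66 without it, SCARNA8 by 2.51 (SE 1.07) and by 1.81, and SCARNA22 by 1.58 (SE 0.635) and by 1.10. SCARNA23 differed by 5.53 (SE 2.52), a value that rests on a WT library at 0, WT replicate 3, and was 2.25 without it. Among those not separated, SCARNA16 differed by 0.24 (SE 0.832) and turned to -0.68 without DXO-KO replicate 3, and SCARNA21 differed by -2.61 (SE 2.50) and turned to 0.65 without DXO-KO replicate 2.

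Among the snRNAs, RNU11 differed by 0.50 (SE 1.24) and turned to -0.41 without DXO-KO replicate 3. RNU12 differed by 0.36 (SE 0.829) and turned to -0.32 without that replicate and to -0.38 without WT replicate 3. RNVU1-8 differed by 0.42 (SE 1.06) and turned to -0.24 and -0.30 without the same 2 libraries. RNU6ATAC differed by 4.28 (SE 2.48), with 0 fragments in WT replicate 3 and 0.99 without it. RNU4ATAC was not tested because it was at 0 in all 6 libraries.

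**Figure D2:**
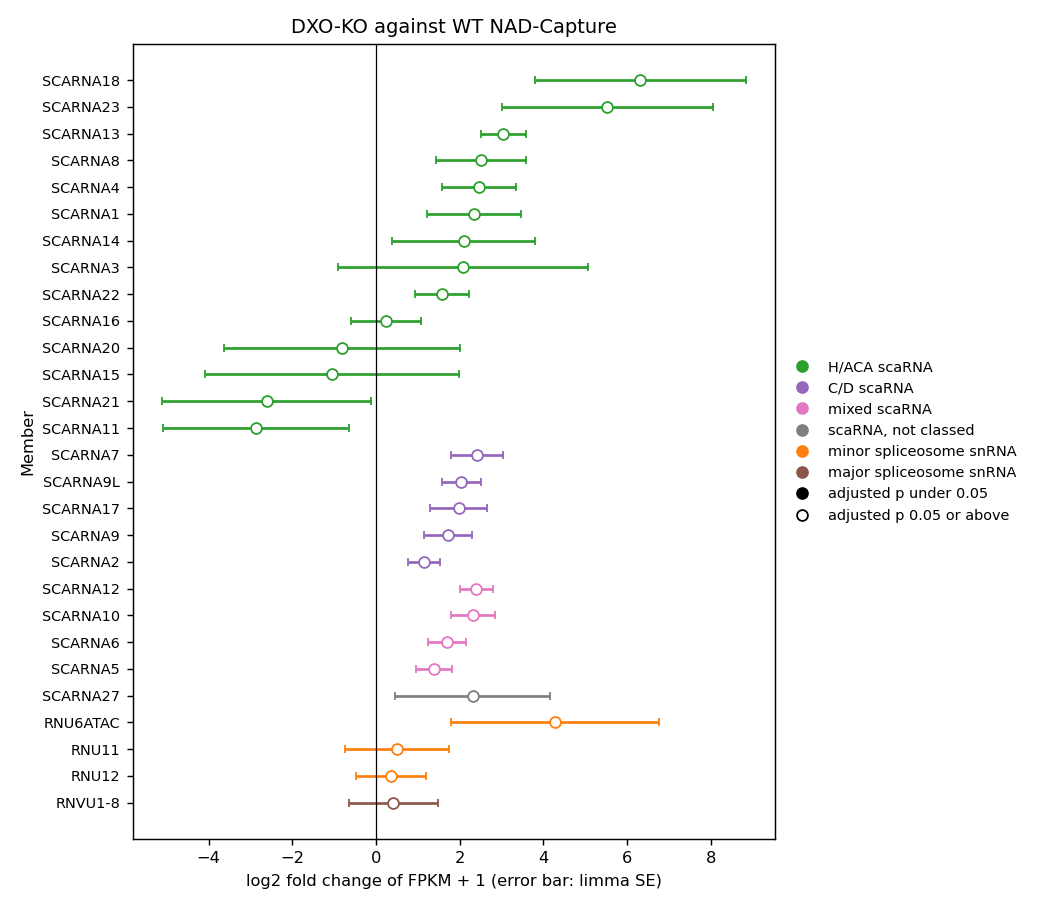
log2 fold change of FPKM + 1, DXO-KO against WT NAD-Capture (3 libraries each), for the 28 tested members, coloured by class; error bars are limma standard errors, and open points did not pass an adjusted p of 0.05. The C/D and mixed scaRNAs lie between 1.15 and 2.42 with short bars, RNU11, RNU12 and RNVU1-8 lie between 0.36 and 0.50, and no point is filled.

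For 15 members of 125 to 141 nt, whole fragments could be read from the steps, with an exact 95% Poisson interval that covers counting error only. Per 1000000 fragments of the library, the scale that removes the raised short-RNA step of DXO-KO replicate 3, SCARNA4 had 36.8, 73.6 and 36.7 in WT NAD-Capture, then 118, 235 and 264 in DXO-KO. The interval of DXO-KO replicate 1, with 94 fragments, was 95.7 to 145, and that of WT replicate 2, with 12 fragments, was 38 to 129. SCARNA22 had 31.6, 24.5 and 20.4 in WT and 85.6, 44 and 50.3 in DXO-KO, and SCARNA23 had 15.8, 6.13 and 0 in WT and 31.5, 29.3 and 50.3 in DXO-KO. The DXO-KO libraries thus also lay above the WT libraries on this scale for SCARNA4, SCARNA22 and SCARNA23, but for each of them the intervals of the nearest libraries overlapped. For SCARNA22 these were 16.1 to 95.7 in DXO-KO replicate 2 and 11.6 to 68.7 in WT replicate 1, from 6 fragments each. For SCARNA23 they were 7.99 to 75.1 (4 fragments) and 3.26 to 46.1 (3 fragments) in the same libraries. SCARNA8 had 57.9, 55.2 and 12.2 in WT and 55.4, 330 and 176 in DXO-KO, with overlap. RNU11 had 605, 779 and 273 in WT and 237, 792 and 867 in DXO-KO, again with overlap; its fold on this scale was 1.08, beside 4.19 for SCARNA4 and 2.29 for SCARNA22. With fragments and depth summed over each group, in which DXO-KO replicate 1 holds 793958 of 1009952 fragment equivalents, the ratio was 0.7 for RNU11 (95% counting interval 0.6 to 0.817), 3.11 for SCARNA4 (2.07 to 4.84) and 3.08 for SCARNA22 (1.76 to 5.76), so that the direction of RNU11 turned with the weighting. In WT replicate 3, where SCARNA23 and RNU6ATAC had 0 fragments, the limit that a count of 0 allows, taken as 3 fragments, was 12.2 per 1000000, and the two-sided exact interval ended at 15. SCARNA11, SCARNA14, SCARNA15, SCARNA18, SCARNA20 and SCARNA27 had between 0 and 4 fragments in any library, and no difference was detectable for them at this depth.

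**Figure D3:**
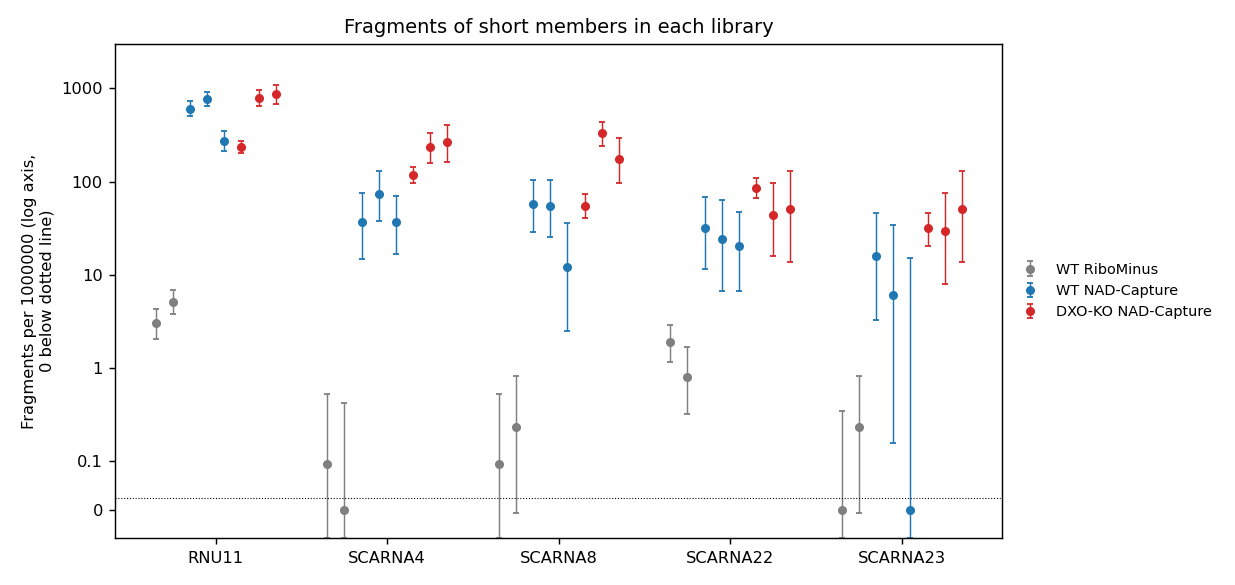
Fragments per 1000000 of the library for 5 short members, 1 point per library (log axis, values of 0 drawn below the dotted line) with the 95% Poisson interval; grey WT RiboMinus, blue WT NAD-Capture, red DXO-KO NAD-Capture. RNU11 lies between 237 and 867 in the NAD-Capture libraries of both groups, while SCARNA4 lies at 118 to 264 in DXO-KO and at 36.7 to 73.6 in WT.

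Which RNAs are enriched by NAD-Capture in unmodified cells was addressed against the 2 RiboMinus libraries. Of 27 tested members 10 passed an adjusted p of 0.05 in limma, or 37%, against 25.7% of 24777 tested transcripts (12.6% higher, 13.1% lower). Among SNORA transcripts 28 of 86 passed (32.6%), and among SNORD transcripts 9 of 31 (29%). RNU11 and 7 scaRNAs rose: SCARNA1, SCARNA4, SCARNA8, SCARNA21, SCARNA22, SCARNA5 and SCARNA9L. SCARNA12 fell, and RNU4ATAC passed with values of 0 in every WT NAD-Capture library, where the depth could not show a decrease. In 10 members every WT NAD-Capture library lay above both RiboMinus libraries, beside 21.3% of all transcripts, and in 3 every one lay below, beside 26.5%. Together these are 13 of 27 members and 47.8% of all transcripts. The 3 include RNU4ATAC, with its values of 0. Of the 34 members, 7 were at 0 in all 5 libraries: the 5 never detected, SCARNA18 and SCARNA27.

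The largest rises among called members were those of H/ACA scaRNAs and U11. On the scale of FPKM + 1, SCARNA1 rose by 8.44 log2 units (SE 0.482, limma adjusted p = 0.00234), SCARNA4 by 9.75 (SE 1.57, limma adjusted p = 0.017; 12.14 without RiboMinus replicate 1, its only library there above 0, and 7.35 without replicate 2) and SCARNA8 by 6.68 (SE 0.844, limma adjusted p = 0.00931). RNU11 rose by 5.97 (SE 0.516, limma adjusted p = 0.00398). SCARNA21 rose by 4.44 (SE 0.662, limma adjusted p = 0.014) and SCARNA22 by 3.08 (SE 0.677, limma adjusted p = 0.04; 4.08 and 2.08 without RiboMinus replicate 1 and 2). By fragments summed over the group and divided by depth, RNU11 was 130-fold higher in WT NAD-Capture (95% counting interval 101 to 169, from 309 against 77 fragments). SCARNA8 was 248-fold higher (74.8 to 1290, 23 against 3), SCARNA22 17.9-fold (8.87 to 35, 15 against 27) and SCARNA21 40.4-fold (8.69 to 203, 5 against 4). For SCARNA4, 28 fragments against 1 gave a ratio of 904 with an interval of 150 to 37000.

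The median over the 13 tested H/ACA scaRNAs was 3.09, over the 9 C/D and mixed ones 0.45, over 86 SNORA transcripts 0.83 and over all transcripts 0.24. That 3.09 is the value of SCARNA3 (SE 3.4), at 0 in RiboMinus and at 611, 0 and 0 FPKM in WT NAD-Capture. SCARNA3 and SCARNA15 passed the filter through WT NAD-Capture values alone, and SCARNA14 through a RiboMinus value alone. By RefSeq length the H/ACA scaRNAs other than SCARNA13 were also shorter than the C/D and mixed ones, and no difference between these groups was tested. Among the C/D and mixed scaRNAs, SCARNA5 rose by 1.51 (SE 0.214, limma adjusted p = 0.0123) and SCARNA9L by 1.00 (SE 0.213, limma adjusted p = 0.0371), whereas SCARNA12 fell by 1.71 (SE 0.275, limma adjusted p = 0.017). SCARNA10 had a difference of 0.09 (SE 0.251), and SCARNA7, a C/D guide, one of -1.42 (SE 0.364, limma adjusted p = 0.0611), with 432 and 399 FPKM in RiboMinus above 145, 232 and 110 in WT NAD-Capture. SCARNA16 had a difference of 1.55 (SE 0.518, limma adjusted p = 0.119); without WT NAD-Capture replicate 3 it was 2.01 and passed (0.00495).

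The minor spliceosome snRNAs did not move together. Beside the rise of RNU11, RNU12 had a difference of 0.84 (SE 0.819, limma adjusted p = 0.552), which became 1.57 and passed without WT NAD-Capture replicate 3 (0.0103), and RNU6ATAC one of -3.09 (SE 3.63), which turned to 0.20 without WT NAD-Capture replicate 3. By fragments RNU6ATAC had a ratio of 1.59 with an interval of 0.319 to 4.87. RNU4ATAC passed the test (limma adjusted p = 0.00216) with all 3 WT NAD-Capture libraries at 0, but at its RiboMinus rate 0.186 fragments would be expected in those 3 libraries together, so no decrease was detectable at this depth and no fold is given.

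**Figure D4:**
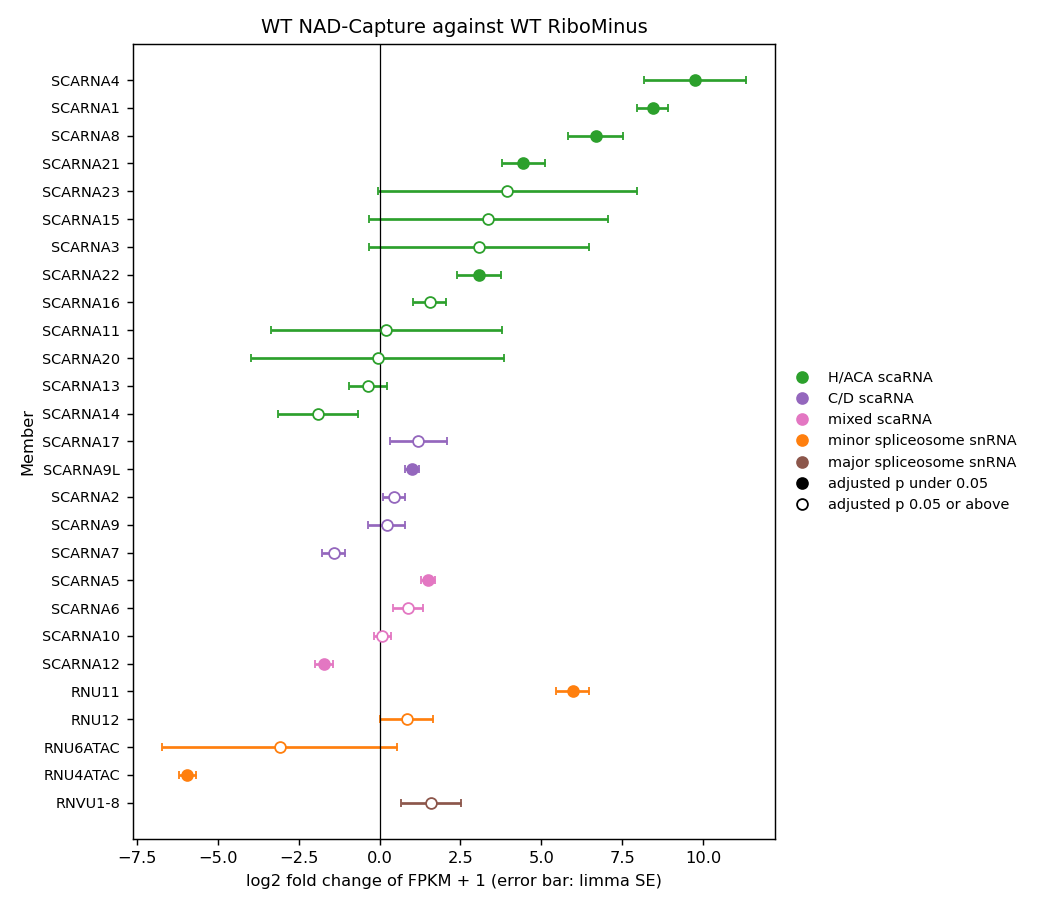
log2 fold change of FPKM + 1, WT NAD-Capture (3 libraries) against WT RiboMinus (2 libraries), for the 27 tested members, coloured by class; error bars are limma standard errors and filled points passed an adjusted p of 0.05. SCARNA4, SCARNA1, SCARNA8 and RNU11 lie between 5.97 and 9.75, while the C/D and mixed scaRNAs lie between -1.71 and 1.51; RNU4ATAC is at 0 FPKM in all 3 NAD-Capture libraries.

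These calls depend on the RiboMinus libraries and on scaling. With RiboMinus replicate 1 or 2 left out, the lone RiboMinus library is assumed to vary like the other group. Without either one RNU11 (limma adjusted p = 0.0897 and 0.0855), SCARNA8 (0.124 and 0.109), SCARNA12 (0.166 and 0.164) and SCARNA9L (0.214 and 0.256) no longer passed. SCARNA5, SCARNA21 and SCARNA22 missed the threshold without RiboMinus replicate 2 (limma adjusted p = 0.0698, 0.0508 and 0.11), SCARNA22 also without any 1 WT NAD-Capture library (0.0758 to 0.0923), and SCARNA9L without WT NAD-Capture replicate 3 (0.0619). SCARNA1 and SCARNA4 passed whichever WT NAD-Capture library was left out. With any 1 library left out, their values ran from 8.14 to 8.83 and from 7.35 to 12.14. RNU4ATAC also passed, but its WT NAD-Capture values are 0 in each of those fits, so its passes are no measure of stability. The 8 higher and 2 lower calls became 6 and 3 with libraries centred on the median transcript, 5 and 4 with quantile normalization, and 4 and 12 with libraries centred on the median SNORA transcript, a scaling under which SCARNA5 (-1.36) and SCARNA9L (-1.88) turned; over all transcripts the split of 3119 higher and 3244 lower became 2231 and 4000, 2603 and 3311, and 70 and 11347.

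Most scaRNAs lie inside a host gene, and the host's difference was set beside that of the scaRNA. For 21 scaRNAs in 20 hosts, FPKM was summed over the host's transcripts. Against WT NAD-Capture, DXO-KO hosts had a median log2 difference of 0.33 (-1.27 to 1.42) and their scaRNAs one of 2.08. The scaRNA exceeded its host in 17 of 21 pairs, and no host passed in limma (0.0771% of all symbols did). Those 17 include SCARNA14 and SCARNA18, which passed the filter through DXO-KO values alone. PPP1R8, the host of SCARNA1, differed by 0.09 (SE 0.356), KHDC4, the host of SCARNA4, by 1.00 (SE 0.384) and HAUS6, the host of SCARNA8, by 0.44 (SE 0.320). PHB2, the host of SCARNA12, differed by 0.24 (SE 0.305), and POLA1, the host of SCARNA23, by -0.09 (SE 0.614).

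Between WT NAD-Capture and RiboMinus the hosts' median was -0.21 (-1.57 to 2.44) and that of 20 scaRNAs 1.35, with the scaRNA above its host in 15 of 20 pairs. Those 15 include SCARNA3 and SCARNA15, above 0 in WT NAD-Capture alone, and SCARNA11 and SCARNA20, each with 1 fragment in WT NAD-Capture. PPP1R8 was at 64.2 and 63.0 FPKM in RiboMinus and at 64.4, 53.8 and 67.3 in WT NAD-Capture (log2 difference -0.05, SE 0.183), where SCARNA1 rose by 8.44. KHDC4 differed by -0.08 (SE 0.327), HAUS6 by 0.19 (SE 0.180), NSD2 (SCARNA22) by -0.10 (SE 0.172) and CHD3 (SCARNA21) by -0.11 (SE 0.231). Of the 19 hosts 4 passed in limma, beside 24.4% of all symbols: NCAPD2 (SCARNA10) at -1.14, CHD4 (SCARNA11) at -1.57, KPNA4 (SCARNA7) at -1.12 and SNHG22 (SCARNA17) at 2.44. Of these, NCAPD2, CHD4 and SNHG22 lay farther from 0 than their scaRNAs, which differed by 0.09, 0.21 and 1.20. Reads of an unspliced host that cross the scaRNA cannot be told apart from the scaRNA in this table.

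**Figure D5:**
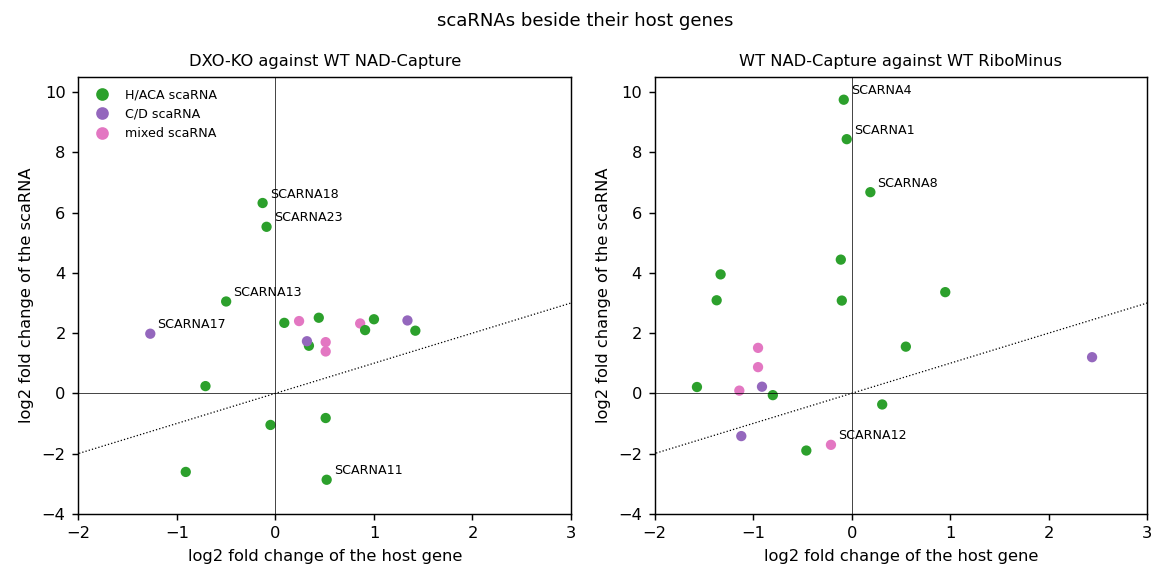
log2 fold change of FPKM + 1 of each scaRNA (vertical) against that of its host gene (horizontal), 21 pairs for DXO-KO against WT NAD-Capture and 20 for WT NAD-Capture against WT RiboMinus; the dotted line marks equal change, and colours give the class. The scaRNA lies above the line in 17 of 21 and 15 of 20 pairs, with SCARNA4, SCARNA1 and SCARNA8 far above hosts that lie between -0.08 and 0.19 in the capture comparison. Pairs above the line include SCARNA14 and SCARNA18 (first comparison) and SCARNA3 and SCARNA15 (second), each above 0 in only 1 of the groups compared.

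The mRNAs of the proteins that build and modify these RNAs were taken as 5 lists, with FPKM summed per symbol. Protein was not measured. Between DXO-KO and WT NAD-Capture no gene of any list passed in limma (0.0771% of all 18154 symbols did), and the list medians lay between 0.11 and 0.54 against -0.02 for all symbols. FBL, the methyltransferase of C/D RNPs, had the highest level of the scaRNP list and differed by 0.33 (SE 0.341), and NHP2, a core H/ACA protein, by 0.90 (SE 0.409). SNRPD2 and SNRPB of the Sm ring differed by 0.21 (SE 0.364) and 0.70 (SE 0.307). LSM3, of the ring on U6, differed by 1.56 (SE 0.581, limma adjusted p = 0.252) and the U1 protein SNRPC by 0.46 (SE 0.499). INTS8 and INTS11 of the Integrator, which cuts snRNA 3′ ends, differed by -0.23 (SE 0.296) and 0.11 (SE 0.438), and XPO1 and SSB by 0.60 (SE 0.331) and 0.20 (SE 0.363).

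Between WT NAD-Capture and RiboMinus, the list medians lay between -0.88 and -0.46 against 0.22 for all 17412 symbols, of which 16.5% were called higher and 7.91% lower. These counts are of mRNAs. Of 16 for scaRNP and Cajal body proteins 0 rose and 6 fell. Among them were SHQ1, an H/ACA assembly factor, at -2.32 (SE 0.570) and the C/D protein NOP56 at -1.72 (SE 0.164). The H/ACA protein NOP10 was at -1.40 (SE 0.354) and coilin (COIL), the scaffold of the Cajal body, at -0.97 (SE 0.251). In WT NAD-Capture 1 fragment of a transcript of 1 kb was worth 4.08 to 6.13 FPKM, so low values, such as SHQ1 at 3.94, 2.29 and 10.7, rest on few fragments. Of 19 SMN complex and Sm proteins 6 rose and 7 fell: SNRPF rose by 2.74 (SE 0.187) and SNRPG by 2.42 (SE 0.264), and SMN1 was at 4.88 and 5.22 FPKM in RiboMinus and at 0 in all 3 WT NAD-Capture libraries. SMN1 and SMN2 are near-identical, and numbered repeats of their transcripts were not summed here, so those values are uncertain. Of 22 LSm and snRNP-specific proteins 1 rose (SNRPC, by 1.88, SE 0.197) and 5 fell, with PRPF3 at -1.95 (SE 0.343) and PRPF8, the core of the U5 particle, at -1.89 (SE 0.298). Of 23 proteins of snRNA transcription and 3′ processing 2 rose and 2 fell: ELL at 1.80 (SE 0.473), ICE1 at -1.80 (SE 0.268) and INTS7 at -1.26 (SE 0.323) changed most among those that passed. Of 13 cap, export and import factors, USB1, which trims U6, rose by 1.57 (SE 0.353) and the import receptor KPNB1 fell by 1.87 (SE 0.156).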

How the data were processed

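The values the authors deposited are named FPKM in the title of their table of RefSeq transcripts; the submitters' processing notes name TopHat2 2.1.1, Bowtie2 2.2.8.0, Cuffdiff and hg19, with no further settings. FPKM were used as deposited. A RefSeq gene table (GRCh38.p14) paired 48862 of 53216 transcripts (91.8%) with symbols; 3309 of the others were numbered repeats of an identifier (325 above 0 in any library), which entered the fits but no symbol sum; sequences, positions and hosts came from GENCODE 29 on GRCh38, not from the authors' build, so an hg19 position is not given. Members and lists were chosen with earlier results of these data known. log2(FPKM + 1) was fitted with limma 3.58.1 under R 4.3.3, with a trended prior and no covariates, keeping each transcript whose FPKM averaged 1 or more over the libraries compared, two-sided, with Benjamini-Hochberg adjustment over all of them. The fit was tested on simulated data. Host genes and lists used FPKM summed per symbol. Members described with every library value were those with an adjusted p under 0.05 in either comparison, the up to 8 SCARNA and up to 8 RNU or RNVU transcripts with the highest mean FPKM (5 RNU or RNVU transcripts were above 0), and those at 0 throughout one group and above 0 throughout another; list genes were up to 3 with an adjusted p under 0.05 and the largest change, otherwise the 2 of highest mean, and COIL, SCARNA7 and SCARNA13 were added after values were seen. Fragments of members shorter than 142 nt were read from the steps of low FPKM values (88.6% to 97.3% within 0.1 of a whole number); those of longer members were not read, and the use of fragments was chosen after the values were seen. Alternatives are given in the closing section.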

Additional observations from a re-analysis of the deposited data

How the results depend on the processing

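Few fragments and 2 or 3 libraries per group limit these results. For DXO-KO against WT NAD-Capture, 8 transcripts and 0 members passed. The count of transcripts was 5 with a pseudocount of 0.1, 51 without a filter, 296 centred on the median SNORA transcript, 141 with all 8 libraries in 1 fit, 14 with FPKM summed per symbol, and 0 to 15 when 1 library was left out; 2 members passed with all 8 libraries in 1 fit and 0 to 0 when 1 library was left out. For WT NAD-Capture against RiboMinus, 6363 transcripts and 10 members passed. The count of transcripts was 1811 with a mean FPKM of at least 10, 4165 with values above 0 in every library, 11417 centred on the median SNORA transcript, 3962 with all 8 libraries in 1 fit, and 2639 to 8302 with 1 library left out; 16 members passed centred on SNORA and 3 to 11 with 1 library left out. The members' median centred on SNORA was 0.24 and -1.88 in the 2 comparisons, beside -1.83 and -2.64 for all transcripts.

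The replicate numbers did not pair libraries (correlations of same-numbered deviations -0.0308 to 0.00747), and with a replicate block 0 transcripts and 0 members passed in either comparison. With so few libraries the block leaves little from which to estimate the spread, so the counts of 0 say nothing of the differences themselves. For DXO-KO against WT, the direction turned centred on SNORA for RNU11 (-1.27), RNU12 (-1.41), RNVU1-8 (-1.35), SCARNA16 (-1.53), SCARNA22 (-0.19) and SCARNA5 (-0.38), and with quantile normalization for RNU11 (-0.62), RNVU1-8 (-0.05) and SCARNA16 (-0.23). With 1 library left out, values ran from -0.41 to 1.40 for RNU11, -0.38 to 0.91 for RNU12, -0.30 to 1.51 for RNVU1-8, -0.68 to 0.83 for SCARNA16 and -5.01 to 0.65 for SCARNA21. For WT NAD-Capture against RiboMinus, it turned centred on SNORA for RNU12 (-2.03), RNVU1-8 (-1.28), SCARNA10 (-2.78), SCARNA16 (-1.32), SCARNA5 (-1.36) and SCARNA9L (-1.88), with quantile normalization for RNU12 (-0.78) and SCARNA10 (-1.18), centred on the median transcript for SCARNA10 (-0.38), and with the replicate block for RNU6ATAC (0.20). With 1 library left out, RNU6ATAC ran from -4.95 to 0.20 and SCARNA10 from -0.12 to 0.21. The cause was not tested. Of 242 values of named members in the first comparison 223 were labelled the same as the main fit, and of 241 in the second 188 were. The label stood for the same direction and side of the threshold, or for fragments a value within the SE. Settings that change only the filter or the estimate of the spread leave the fold change as it was. No member passed in the main fit of the first comparison, so these counts are no measure of robustness.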

Other observations

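The levels of 4 H/ACA scaRNAs were divided by that of RNU11 in the same library. Scaling a library by a common factor leaves this ratio as it was, whereas quantile normalization can change it. The RNAs and the ratio were chosen after the values were seen, and no difference passed a threshold of 0.05. SCARNA1 stood at 0.372, 0.398 and 0.439 of the FPKM of RNU11 in WT NAD-Capture and at 1.77, 1.3 and 1.31 in DXO-KO, beside 0.0865 and 0.0582 in RiboMinus. SCARNA1 is the longer RNA (166 against 135 nt), so this is not a ratio of fragments. The step changed more steeply with length in RiboMinus, so its ratios are not on the same footing. By fragments, SCARNA4 stood at 0.0609, 0.0945 and 0.134 of RNU11 in WT NAD-Capture and at 0.5, 0.296 and 0.304 in DXO-KO. SCARNA8 stood at 0.0957, 0.0709 and 0.0448 in WT and at 0.234, 0.417 and 0.203 in DXO-KO. For these 3 the groups did not overlap, with log2 differences of 1.84, 1.96 and 2.01 (two-sided exact permutation p = 0.1 each, the smallest that 3 against 3 allows, and 0.133 after Benjamini-Hochberg adjustment over the 4). SCARNA22 stood at 0.0522, 0.0315 and 0.0746 in WT and at 0.362, 0.0556 and 0.058 in DXO-KO, with overlap (log2 difference 1.08, exact permutation p = 0.4).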
